A study of Mus musculus with 4 samples.

Results

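Cd8a, Cd8b1, Nkg7, Ctsw, Cxcr6 and Ccl5 are 6 of the 397 genes of a targeted immune panel, and they were chosen by name as genes of CD8 and cytotoxic T cells. Cd8a and Cd8b1 encode the alpha and beta chains of the CD8 co-receptor, which binds MHC class I beside the T cell receptor. Nkg7 encodes a membrane protein of cytotoxic granules, and Ctsw encodes cathepsin W, a protease made by killer lymphocytes. Cxcr6 is a chemokine receptor of T cells that settle in tissues, and its ligand is CXCL16. Ccl5 encodes the chemokine RANTES, which effector T cells store and release and which binds CCR1 and CCR3 among its receptors. CD8 T cells patrol the brain in low numbers, and they gather there in aged mice and in mouse models of amyloid deposition.

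The cells came from 4 male mice aged 9 months, all of the 5XFAD line, 2 of them Abi3-/- and 2 Abi3+/+. 5XFAD mice carry human transgenes with mutations of familial Alzheimer's disease, which are expressed in neurons. The Abi3-/- strain carries a whole-body deletion of the Abi3 locus, made on C57BL/6N, while the 5XFAD line is on a B6SJL background. According to the methods of the study, the mice were heterozygous for a Trem2 variant of the SJL background, so both genotypes share it. Cells of the right hemisphere, without the cerebellum or olfactory bulb, were released in cold Accutase, cleared of myelin with beads and captured on the BD Rhapsody system, with no sort for T cells. Each mouse gave 1 library, so differences between mice and between libraries cannot be told apart, and 2 mice per genotype are few. Abi3 is not on the panel, and the genotypes could not be checked in these data.

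The deposited values are reads of targeted amplicons per cell and not molecules, so a level is compared here between cells and mice and not between genes. After cells with fewer than 40 genes or with reads above an upper limit were left out, 13820 of 21172 remained, 2321 from Abi3-/- mouse 1, 4499 from Abi3-/- mouse 2, 3796 from Abi3+/+ mouse 1 and 3204 from Abi3+/+ mouse 2. Their median depth was 19647.5 to 24283 reads and 76 to 81 genes per cell. A cell was called a T cell when at least 2 of Cd3d, Cd3e, Cd3g, Trac and Trbc2, which encode chains of the T cell receptor complex, had a read. By that rule 95, 68, 68 and 76 cells were T cells in Abi3-/- mice 1 and 2 and Abi3+/+ mice 1 and 2, 307 in all, and 259 of them had reads of all 5 genes. The label held against further T cell markers: Thy1 was read in 100% of the T cells of each mouse, and Lck, the kinase of the T cell receptor, in 96.1% to 100%. A cluster led by Thy1, Trbc2, Lat and Lck held all 307 T cells and 15 more cells that missed the rule.

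The 6 genes lie on 5 chromosomes of the mm10 build by RefSeq (GRCm38.p6). Cd8b1 (chr6:71322788-71337492) and Cd8a (chr6:71373427-71379171) are neighbours with 35934 bases between them. Nkg7 lies at chr7:43437138-43438246, Cxcr6 at chr9:123806477-123811754, Ccl5 at chr11:83525778-83530518 and Ctsw at chr19:5465043-5468628. Of the 6 genes 3, Cd8a, Nkg7 and Cxcr6, matched the RefSeq promoter table, and their promoters are shown because factors of the RUNX and T-box families are known to act in cytotoxic T cells. Each runs from 250 bases before to 50 bases after the RefSeq start of the gene on the plus strand, and capitals mark matches to the letters TGTGGT of a RUNX motif or AGGTGTGA of a T-box motif on either strand.
Cd8a, chr6:71373177-71373476: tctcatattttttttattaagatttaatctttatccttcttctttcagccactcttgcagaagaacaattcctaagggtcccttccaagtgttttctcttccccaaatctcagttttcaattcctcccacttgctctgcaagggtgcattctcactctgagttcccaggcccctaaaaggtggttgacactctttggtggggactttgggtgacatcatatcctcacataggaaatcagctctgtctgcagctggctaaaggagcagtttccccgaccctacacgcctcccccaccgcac
Nkg7, chr7:43436888-43437187: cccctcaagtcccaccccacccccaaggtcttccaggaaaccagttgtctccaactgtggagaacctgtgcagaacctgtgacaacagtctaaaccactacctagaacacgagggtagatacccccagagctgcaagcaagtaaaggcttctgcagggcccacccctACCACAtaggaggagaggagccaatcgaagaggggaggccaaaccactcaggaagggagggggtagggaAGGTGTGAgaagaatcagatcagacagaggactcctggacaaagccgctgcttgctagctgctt
Cxcr6, chr9:123806227-123806526: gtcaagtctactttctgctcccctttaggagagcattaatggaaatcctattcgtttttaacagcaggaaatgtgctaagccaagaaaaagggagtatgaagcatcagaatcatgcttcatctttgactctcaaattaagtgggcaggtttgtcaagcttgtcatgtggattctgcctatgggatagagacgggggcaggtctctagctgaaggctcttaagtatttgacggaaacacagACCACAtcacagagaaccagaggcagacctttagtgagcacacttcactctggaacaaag
The Nkg7 promoter held 1 RUNX match and 1 T-box match, the Cxcr6 promoter held 1 RUNX match, and the Cd8a promoter held neither string of letters. The RUNX letters were found in 16.8% of 32851 RefSeq promoters of the same length and the T-box letters in 1.28%. A match is a description of the letters only. On the transcript side, Runx3 was read in 45.3%, 39.7%, 35.3% and 7.89% of the T cells of Abi3-/- mice 1 and 2 and Abi3+/+ mice 1 and 2, Tbx21, the T-box factor T-bet, in 42.1%, 39.7%, 47.1% and 44.7%, and Eomes, another T-box factor, in 6.32%, 10.3%, 23.5% and 44.7%.

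All 6 genes were read in most T cells of every mouse. The CD8 chains were read in a smaller share of T cells than the other 4 genes. In the order Abi3-/- mouse 1, Abi3-/- mouse 2, Abi3+/+ mouse 1 and Abi3+/+ mouse 2, which is kept for every set of 4 values below, Cd8a was read in 73.7%, 66.2%, 79.4% and 63.2% of T cells. Cd8b1 was read in 70.5%, 69.1%, 80.9% and 63.2% of T cells. Nkg7 was read in 95.8%, 80.9%, 92.6% and 89.5%. The T cells of Abi3-/- mouse 2 had the lowest share for Nkg7, and the same mouse was lowest for the 3 genes that follow. Ctsw was read in 92.6%, 73.5%, 98.5% and 93.4% of T cells. Cxcr6 was read in 91.6%, 79.4%, 89.7% and 84.2%. Ccl5 was read in 90.5%, 72.1%, 92.6% and 80.3%. The T cells of Abi3-/- mouse 2 were also the shallowest, at a median of 15117 reads against 16736 to 17450 in the other mice. Among T cells of at least 12250 reads, each thinned to that number, this mouse was still lowest for Nkg7 (85.1%), Ctsw (78.7%) and Ccl5 (87.2%), but for Cxcr6 the shares were 93.9%, 91.5%, 90.9% and 93.3%, with Abi3+/+ mouse 1 the lowest. Over all T cells the shares ran from 70.7% for Cd8a and Cd8b1 to 84.4% for Ccl5, 86.6% for Cxcr6, 89.9% for Ctsw and 90.2% for Nkg7. In microglia-like cells, which should lack the CD8 chains, 3 of 12702 cells (0.0236%, exact 95% binomial interval 0.00487% to 0.0690%) had a Cd8a read and 4 had a Cd8b1 read, at a median depth of 21219 reads against 16897 in T cells. All such intervals cover counting error only.

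**Figure D1:**
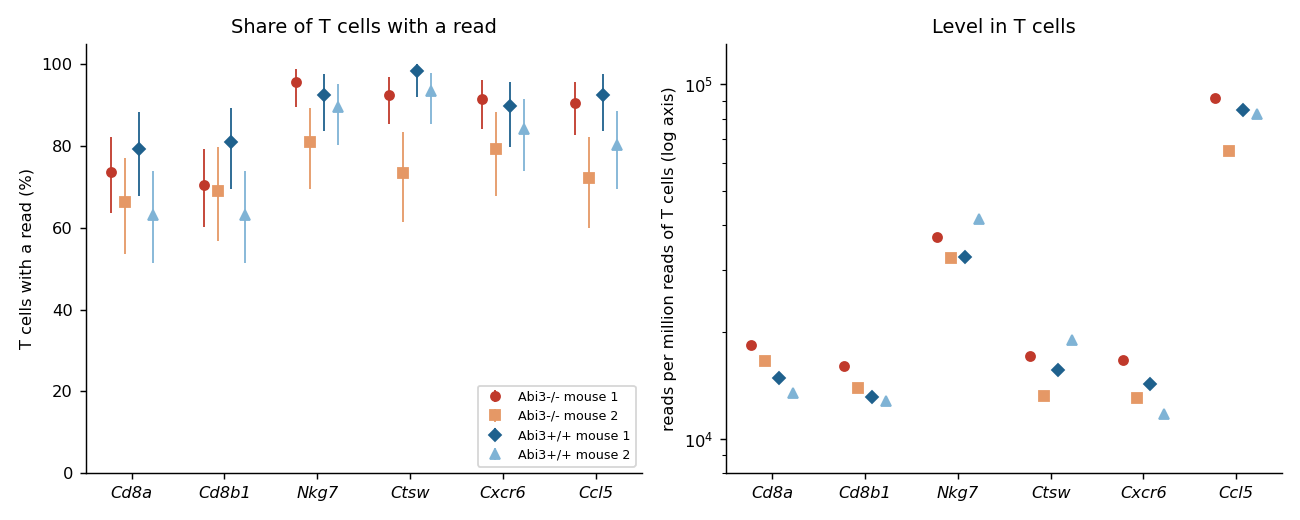
Left, percent of T cells with a read of each gene in each mouse, with exact 95% binomial intervals as bars; right, level of each gene in RPM (reads per 1000000 panel reads) in the T cells of each mouse, on a log axis. Symbols stand for the 4 mice, and Abi3-/- mouse 2 has the lowest share for Nkg7, Ctsw, Cxcr6 and Ccl5, which for Cxcr6 did not hold among thinned cells with shallower cells left out.

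T cells that had these genes had many reads of them. The median T cell with a Cd8a read had 416, 356, 281 and 340.5 Cd8a reads, and the median T cell with a Cd8b1 read had 433, 251, 275 and 338 Cd8b1 reads. For Ccl5 the medians were 1482, 1258, 1463 and 1643 reads. Counting a gene as detected only from 10 reads on left the share of T cells with all 6 genes at 62.5% as a mean of the 4 mice, the value with any read.

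The 6 genes were read together in the same cells. All 6 were read in 192 of the 307 T cells, and 11 T cells had none of them. By mouse, all 6 were read in 65.3%, 55.9%, 73.5% and 55.3% of T cells. The Abi3-/- mean was 60.6% ± 6.63 (SD, n = 2) and the Abi3+/+ mean 64.4% ± 12.9 (SD, n = 2), and the genotypes overlapped (exact permutation test over mice, 2-sided, p = 1.00, with 0.33 the smallest p that 2 against 2 mice allow). With each cell thinned to 12250 reads and shallower cells left out, the shares were 70.7%, 74.5%, 72.7% and 66.7%. This left out 13, 21, 13 and 16 shallower T cells. Abi3-/- mouse 2 moved from near the lowest share to the highest, and the difference between genotypes changed sign, to 72.6% ± 2.64 (SD, n = 2) in Abi3-/- and 69.7% ± 4.29 (SD, n = 2) in Abi3+/+. Of the 11 T cells with none of the genes, 7 came from Abi3-/- mouse 2.

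**Figure D2:**
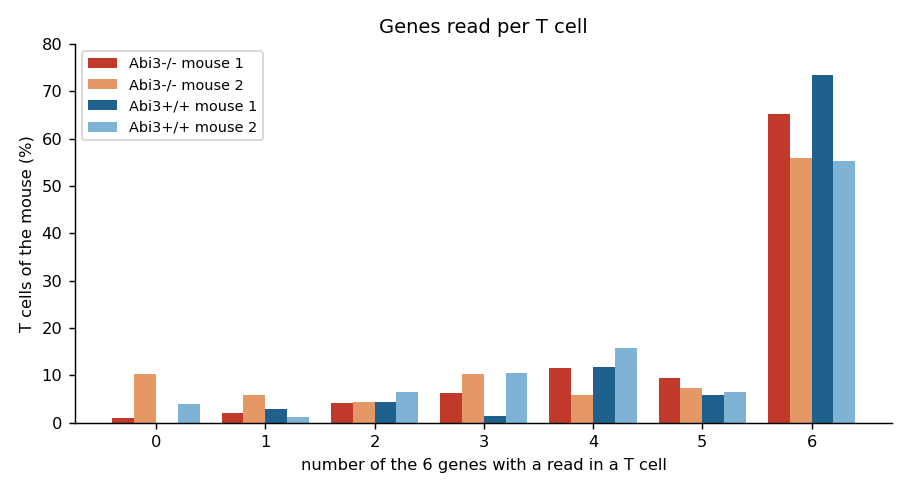
Percent of the T cells of each mouse by the number of the 6 genes that had a read; bars stand for the 4 mice. In every mouse the class with all 6 genes is the tallest, at 55.3% to 73.5%.

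Cd8a and Cd8b1 were all but inseparable. Both chains were read in 213 T cells, Cd8a alone in 4, Cd8b1 alone in 4 and neither in 86. The phi coefficient of detection, which is 1 when 2 genes are read in the same cells and 0 when they are unrelated, was 0.87, 0.93, 0.95 and 1.00. Within the cells with both chains the shares of reads of the chains went together only weakly, with Spearman's rho across cells of 0.30, 0.45, 0.20 and 0.14. Cells of a mouse share a library and differ in depth, so these coefficients are descriptions.

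Among the other pairs, phi was highest for Ccl5 with Nkg7 and with the CD8 chains. The mean phi over the 4 mice was 0.60 for Nkg7 and Ccl5 (range 0.29 to 0.78), 0.58 for Cd8a and Ccl5 (0.54 to 0.66) and 0.54 for Cd8b1 and Ccl5 (0.44 to 0.65). Nkg7 and Ctsw had a mean of 0.53 (0.43 to 0.73). Phi cannot reach 1 where 2 genes are read in unequal shares of cells, so the order of the pairs also reflects those shares. Cd8a and Nkg7 had a mean of 0.49 (0.35 to 0.60), although 216 T cells with Cd8a had Nkg7 and 1 did not. Cxcr6 was the gene least tied to CD8, with a mean of 0.24 against Cd8a (0.12 to 0.40) and 0.20 against Cd8b1 (0.08 to 0.37). The most frequent pattern short of all 6 genes was Nkg7, Ctsw, Cxcr6 and Ccl5 without either CD8 chain, in 34 T cells (11, 3, 8 and 12), and the next was Nkg7, Ctsw and Cxcr6 alone, in 15 T cells.

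**Figure D3:**
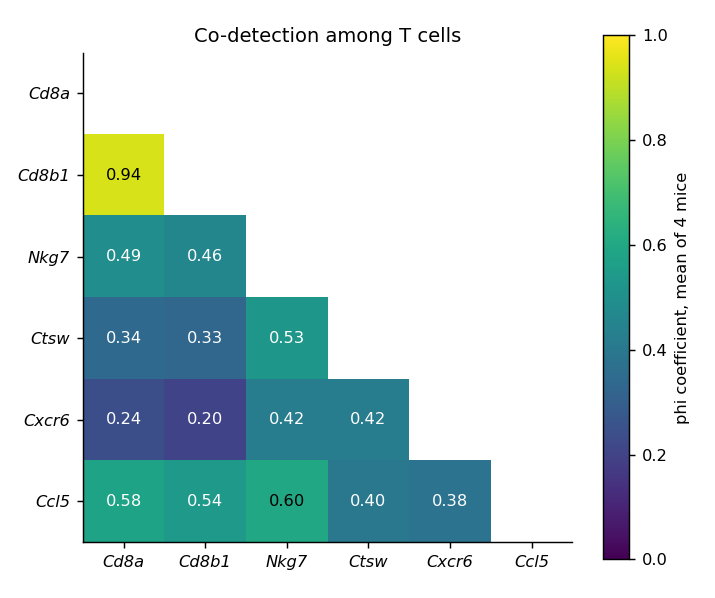
Phi coefficient of detection among T cells for each pair of the 6 genes, as the mean over the 4 mice; colour and number give the same value. The pair Cd8a and Cd8b1 stands at 0.94, and the pairs of Cxcr6 with the CD8 chains are the lowest at 0.24 and 0.20.

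Of 180 other panel genes that were read in 5% to 95% of T cells, those with the pattern most like the 6 genes were Xcl1, a chemokine of activated CD8 T cells and natural killer cells, and Cst7, the protease inhibitor cystatin F. Xcl1 had the highest mean phi with Nkg7 (0.43), Ccl5 (0.42), Cxcr6 (0.40) and Ctsw (0.38), and Cst7 had the highest with Cd8a (0.43) and Cd8b1 (0.41). Next to these stood Xcl1 for Cd8a (0.36), Itga4, an integrin chain, for Cd8b1 (0.34), Rgs1 for Cxcr6 (0.31) and Qpct for Ccl5 (0.28). Cd4, the co-receptor of helper T cells, had the lowest mean phi with Cd8a (-0.67), Cd8b1 (-0.68), Nkg7 (-0.47) and Ccl5 (-0.43).

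T cells with a read of either CD8 chain were called CD8-positive and the others CD8-negative. There were 71, 47, 55 and 48 CD8-positive cells, 221 in all, and 24, 21, 13 and 28 CD8-negative cells, 86 in all. CD8-positive cells made up 74.7%, 69.1%, 80.9% and 63.2% of T cells. Cd4 was read in 0 of the 221 CD8-positive cells, which allows a share of cells with a read of up to 1.36% (such limits are on reads, and cells can express a gene without a read), and in 13, 14, 8 and 13 of the CD8-negative cells, 48 in all. The other 38 T cells had neither Cd4 nor a CD8 chain. Foxp3, the factor of regulatory T cells, was read in 1.05%, 4.41%, 1.47% and 0% of all T cells and in 0 CD8-positive cells. The median CD8-positive cell had 18139, 17423, 17042 and 20139 reads and the median CD8-negative cell 15242, 11230, 15445 and 13461, so the classes differed in depth in each mouse.

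Ccl5 and Nkg7 were higher in CD8-positive than in CD8-negative T cells, while the levels of Ctsw and Cxcr6 did not differ past the threshold. Ccl5 was read in 100%, 91.5%, 98.2% and 97.9% of CD8-positive cells and in 15 of 24, 6 of 21, 9 of 13 and 14 of 28 CD8-negative cells. Its level, in RPM (reads of the gene per 1000000 panel reads of the same cells), was 103353, 80836, 99945 and 110239.7 in CD8-positive cells and 42849.8, 12732, 25373 and 13899 in CD8-negative cells. The classes did not overlap for Ccl5, and the folds within the mice were 2.41, 6.35, 3.94 and 7.93 (edgeR quasi-likelihood test with mouse as a block, log2 fold change 2.64 ± 0.35 SE, Benjamini-Hochberg adjusted p = 0.0240). Nkg7 stood at 40844, 39396, 37812 and 47613 RPM in CD8-positive cells and at 22367, 8772, 11572 and 26845 in CD8-negative cells. The CD8-positive cells were again higher in each mouse, by 1.83, 4.49, 3.27 and 1.77 times (edgeR, log2 fold change 1.81 ± 0.24 SE, adjusted p = 0.0240). Of 252 genes tested apart from the CD8 chains, 5 passed the adjusted threshold of 0.05 (1.98%), 4 of them higher in CD8-positive cells (1.59%) and 1 lower (0.397%), with 40 (15.9%) at an unadjusted p under 0.05. Whatever their p, 18 genes (7.14%) were higher and 54 (21.4%) lower in CD8-positive cells of all 4 mice. These directions are of RPM, without the TMM scaling of the log2 fold changes, of which 161 lay above 0. Cd3g and H2-K1, for example, were lower in all 4 mice at log2 fold changes of 0.17 and 0.19.

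Ctsw and Cxcr6 were common in both classes. Ctsw was read in 98.6%, 87.2%, 100% and 97.9% of CD8-positive cells and in 18 of 24, 9 of 21, 12 of 13 and 24 of 28 CD8-negative cells, and the ratios of its levels were 1.26, 3.18, 1.09 and 0.715. The level of Ctsw differed by less than the threshold asks (edgeR, log2 fold change 0.82 ± 0.32 SE, unadjusted p = 0.0456, adjusted p = 0.288), and with each mouse left out in turn the log2 fold change ran from 0.44 to 1.05. Cxcr6 was read in 95.8%, 89.4%, 90.9% and 87.5% of CD8-positive cells and in 79.2%, 57.1%, 84.6% and 78.6% of CD8-negative cells. Its levels had ratios of 1.15, 1.31, 0.817 and 0.506, above 1 in both Abi3-/- mice and below 1 in both Abi3+/+ mice. Over all mice the log2 fold change of Cxcr6 was 0.25 ± 0.21 SE (edgeR, adjusted p = 0.615; 0.09 to 0.45 with each mouse left out in turn). Among the 48 T cells with Cd4, Nkg7 was read in 27, Ctsw in 31, Cxcr6 in 33 and Ccl5 in 22, and among the 38 with neither co-receptor in 31, 32, 31 and 22.

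**Figure D4:**
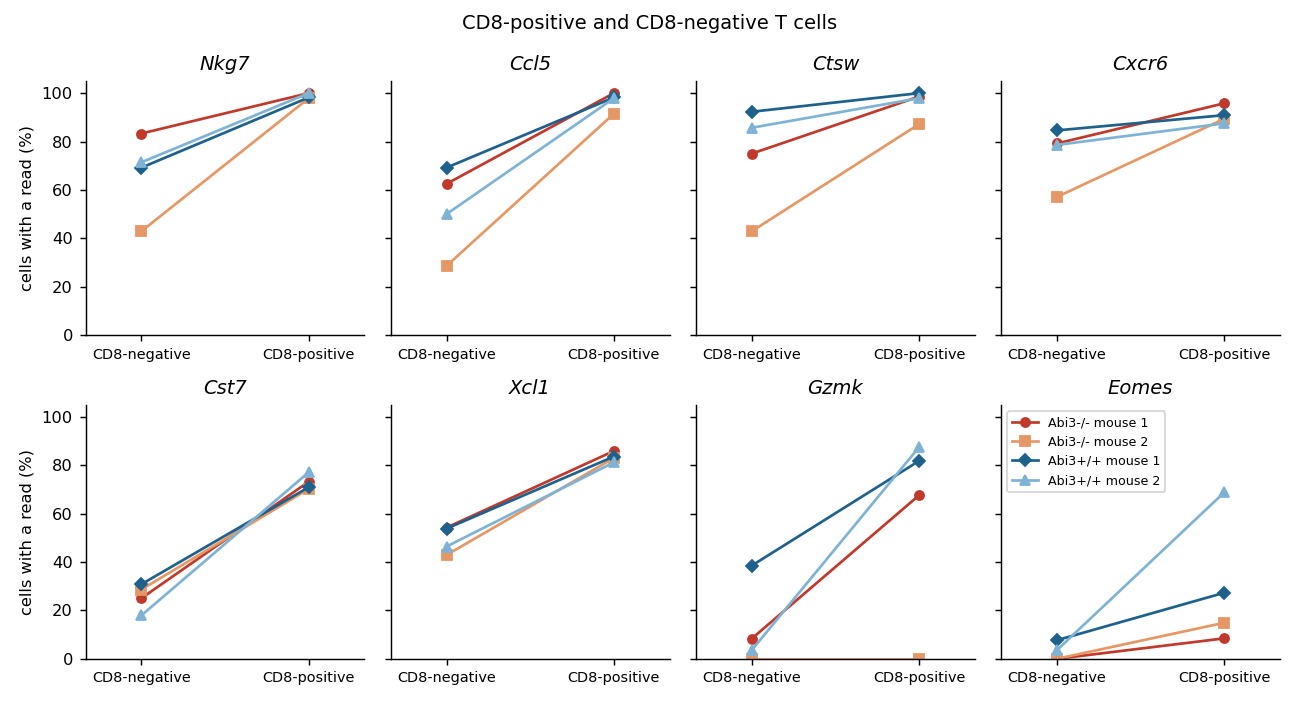
Percent of CD8-negative and CD8-positive T cells with a read of Nkg7, Ccl5, Ctsw, Cxcr6, Cst7, Xcl1, Gzmk and Eomes; each line joins the classes of 1 mouse. The lines of Nkg7, Ccl5, Ctsw, Cxcr6, Cst7, Xcl1 and Eomes rise in all 4 mice, and Gzmk has no read in Abi3-/- mouse 2.

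The other genes past the threshold were Cst7, Xcl1 and Cd4. Cst7 stood at 3906, 4639.5, 4595 and 6769.9 RPM in CD8-positive cells and at 561, 1547, 1938 and 1548 in CD8-negative cells (edgeR, log2 fold change 2.36 ± 0.34 SE, adjusted p = 0.0294). Xcl1 stood at 7864, 12219, 8925 and 8047 against 6593, 4417, 4146 and 4340.1 (edgeR, log2 fold change 1.35 ± 0.22 SE, adjusted p = 0.0419). Both were higher in CD8-positive cells of each mouse, with the classes apart. Over 18 alternatives Xcl1 lost its call in 7, among them no TMM scaling, no filter on low counts and thinned cells (adjusted p from 2.92e-04 by DESeq2 to 0.225 by edgeR), and Cst7 in 4 (2.71e-07 to 0.194). Cd4 was lower (edgeR, adjusted p = 0.0240), and no fold is given because the CD8-positive cells had no Cd4 read. It passed the filter on low counts through the CD8-negative cells alone, so its call adds nothing to the counts of cells with Cd4. Nkg7 lost its call in 4 of the alternatives (1.96e-08 by DESeq2 to 0.120 by edgeR), Cd4 in 2 and Ccl5 in 1. The calls moved with the mice. Without Abi3-/- mouse 2, whose CD8-negative cells had the lowest shares of Nkg7 and Ccl5, edgeR called 0 of the genes, with 27 at an unadjusted p under 0.05, while the log2 fold change of Ccl5 was 2.52 and that of Nkg7 1.58. Without Abi3-/- mouse 1 the calls were Ccl5 and Xcl1, without Abi3+/+ mouse 2 they were Ccl5, Cd4 and Nkg7, and without Abi3+/+ mouse 1 there were 5 calls, with neither Nkg7 nor Xcl1 among them. Without TMM scaling the median of all genes moved from 0.25 to -0.17 on the log2 scale and the calls were 2 higher and 3 lower. Relative to that median the differences were 2.40 for Ccl5, 1.56 for Nkg7, 0.57 for Ctsw and 0.00 for Cxcr6 under both scalings. That sameness was fixed in advance, because the scaling shifts all genes of a library alike, and it does not bear on how firm the calls are.

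Genes of related function were described from lists. Of 8 cytotoxic effector genes on the panel 7 could be tested between the CD8 classes, and 0 passed the adjusted threshold of edgeR. At an unadjusted p under 0.05 there were 4, against 40 of all 252 genes. Log2 fold changes were above 0 for 6 of the 7 and for 161 of all genes. No median of the list is compared with all genes. Gzmm and Prf1 were read in at most 7 and 9 T cells of a mouse, and Gzmk in none of Abi3-/- mouse 2. Gzmb, the serine protease granzyme B, was read in 35.8%, 27.9%, 22.1% and 10.5% of T cells, and the difference between the CD8 classes was 4.16 ± 1.90 SE on the log2 scale (edgeR, adjusted p = 0.318). It ranged from 2.83 without Abi3+/+ mouse 1 to 5.46 without Abi3+/+ mouse 2, and of the alternatives DESeq2 called it (adjusted p = 0.00977; range over alternatives 0.00977 to 0.695). Prf1, which encodes the pore-forming perforin, was read in 8.42%, 8.82%, 13.2% and 2.63% of T cells, Gzma in 5.26%, 0%, 0% and 2.63%, and Ifng, the gene of interferon gamma, in 6.32%, 16.2%, 19.1% and 7.89%. Fasl, the ligand of the death receptor Fas, was far more common, with reads in 75, 38, 34 and 55 T cells. Gzmk, the gene of granzyme K, was read in 52.6%, 0%, 73.5% and 56.6% of T cells. The library of Abi3-/- mouse 2 held no Gzmk read in any deposited cell, against 52, 53 and 43 cells in the others, so its value bears on that library. In the other 3 mice Gzmk was read in 67.6%, 81.8% and 87.5% of CD8-positive cells and in 8.33%, 38.5% and 3.57% of CD8-negative cells.

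Of the 4 transcription factors of effector T cells, edgeR called 0 between the CD8 classes, and 1, Eomes, had an unadjusted p under 0.05. Eomes was read in 6, 7, 16 and 34 T cells, and in 8.45%, 14.9%, 27.3% and 68.8% of CD8-positive cells. It was higher in the CD8-positive cells of all 4 mice without passing the threshold (edgeR, adjusted p = 0.0752). No fold is given because few or no CD8-negative cells of a mouse had an Eomes read. Tbx21 (edgeR, log2 fold change -0.04 ± 0.32 SE) and Runx3 (-0.22 ± 0.41 SE) lay near 0. Of 8 helper and regulatory T cell genes 7 were tested, and all 7 had log2 fold changes below 0, with a median of -3.13. That median counts Cd4, which had no read in CD8-positive cells. Of the 7 genes 6 had an unadjusted p under 0.05 (15.9% of all genes did). Cd4 alone passed the adjusted threshold, and it entered the test through its reads in CD8-negative cells only. Tnfrsf4 (OX40) and Icos, both co-stimulatory receptors, were lower by 3.13 ± 0.56 SE and 2.13 ± 0.37 SE on the log2 scale and just missed the threshold (edgeR, adjusted p = 0.0529 for each). Of 15 natural killer receptor genes 4 could be tested, and edgeR called 0 of them (1 at an unadjusted p under 0.05). Of these genes, Klrk1 was read in 13.2% to 36.8% of T cells by mouse, Klrc1 in 14.7% to 44.1% and Cd160 in 21.1% to 35.8%, while Klrb1 was read in 1 T cell.

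Between genotypes, no member passed the test in T cells. T cells made up 4.09%, 1.51%, 1.79% and 2.37% of kept cells. Abi3-/- mouse 1 had the highest share and Abi3-/- mouse 2 the lowest, so that the Abi3-/- mean was 2.80% ± 1.83 (SD, n = 2) against 2.08% ± 0.411 (SD, n = 2) in Abi3+/+ (exact permutation test, 2-sided, p = 1.00). CD8-positive T cells made up 3.06%, 1.04%, 1.45% and 1.5% of kept cells, in the same order of mice (exact permutation test, p = 1.00). Without Abi3-/- mouse 1 the difference of the mean T cell share turned from 0.721 to -0.570 percentage points. Detection of Ctsw in T cells was 83.1% ± 13.5 (SD, n = 2) in Abi3-/- and 96.0% ± 3.61 (SD, n = 2) in Abi3+/+, with both Abi3-/- mice below both Abi3+/+ mice and the smallest p the exact permutation test can give, 0.33. Of the 286 genes tested in T cells 25 (8.74%) had a lower share of cells with a read in Abi3-/- without overlap and 60 a higher one, and the level of Ctsw overlapped. Without Abi3-/- mouse 2 the difference in Ctsw detection went from -12.9 to -3.34 percentage points, and without Abi3-/- mouse 1 to -22.4. For the other 5 genes the shares overlapped between genotypes and the exact permutation p was 0.667 for Ccl5 and 1.00 for Cd8a, Cd8b1, Nkg7 and Cxcr6.

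The CD8 chains had their 2 highest levels in the Abi3-/- mice, and neither passed the test. Cd8a stood at 18360.3, 16567, 14796 and 13482 RPM in T cells, and Cd8b1 at 16071, 13853, 13095 and 12789. The means of Cd8a were 17464 ± 1268 (SD, n = 2) and 14139 ± 929 (SD, n = 2) and those of Cd8b1 14962 ± 1568 and 12942 ± 217, at the smallest p of the exact permutation test (0.33) for each. The log2 fold change of Abi3-/- against Abi3+/+ was 0.24 ± 0.19 SE for Cd8a and 0.14 ± 0.20 SE for Cd8b1 (edgeR, adjusted p = 0.970 for each). Of all genes tested 17.8% lay higher in Abi3-/- without overlap, as these 2 of the 6 members did, and 14.3% lay lower. Nkg7 stood at 37188, 32284, 32461 and 41653 RPM, Ctsw at 17081, 13152, 15648 and 18925, Cxcr6 at 16673, 13013, 14214 and 11699, and Ccl5 at 91381, 65020.0, 84740.0 and 82593. These 4 genes overlapped between genotypes, with log2 fold changes of -0.16 ± 0.22 SE for Nkg7, -0.25 ± 0.25 SE for Ctsw, 0.13 ± 0.25 SE for Cxcr6 and -0.15 ± 0.26 SE for Ccl5 (edgeR, adjusted p = 0.970 for each). Of 286 genes tested in T cells edgeR called 0 (0%), with 12 (4.20%) at an unadjusted p under 0.05, limma called 0 and DESeq2 called 4, none of them a member. The test of whether genotype differences varied between the CD8 classes, which was added after seeing the data, also called 0 of 252 genes, with 8 (3.17%) at an unadjusted p under 0.05. Cxcr6 was the only member among these. Its log2 fold change of CD8-positive over CD8-negative cells was higher in Abi3-/- by 0.79 ± 0.24 SE (edgeR, unadjusted p = 0.0345), which did not pass the adjusted threshold.

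Beside the members, edgeR called 0 genes of each list of related genes between genotypes in T cells, as it called 0 of all 286 genes. The 8 cytotoxic effector genes had a median log2 fold change of 0.25 and the 8 helper and regulatory genes of 0.80, against 0.05 over all genes. The 8 natural killer receptor genes tested stood at 1.30 (6 above 0), the 5 genes of tissue residence and inhibition at 1.34 (5 above 0; Tigit, the sixth of that list, is on the panel as Tigit1 and Tigit2, at 0.91 and -0.11, and was not matched), the 5 naive and central memory genes at 0.12 and the 4 transcription factors at -0.04, while 152 of all 286 genes lay above 0. Of the natural killer receptors, Klra1, Klra7 and Klra21 were read in 3, 3 and 9 T cells of Abi3-/- mouse 1 and in 0 of Abi3-/- mouse 2. Of the 5 genes of tissue residence and inhibition, the gene at the median was read in 10, 7, 1 and 5 T cells. The gene with the highest log2 fold change among them, 2.82, was read in 3, 5, 2 and 0. By mouse, those genes were read in 67.2% to 87.2% and 79.2% to 85.1% of microglia-like cells, and a part of microglial reads in their values was not tested. Eomes was lower in both Abi3-/- mice (edgeR, log2 fold change -3.28 ± 0.59 SE, adjusted p = 0.717; -3.71 to -2.58 with each mouse left out in turn), and DESeq2 called it with an adjusted p of 6.12e-04. It rested on reads of 6.32% and 10.3% of T cells in Abi3-/- mice and 23.5% and 44.7% in Abi3+/+ mice.

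Summed over all kept cells, the members followed the number of T cells. Cd8a had 554, 180.1, 211 and 232 RPM in all kept cells and Ccl5 had 3142, 878, 1242 and 1471. For both genes Abi3-/- mouse 1 was highest and Abi3-/- mouse 2 lowest, as for the share of T cells, and fewer T cells and fewer transcripts per T cell cannot be told apart in such a sum. The log2 fold changes of the 6 genes were 0.35 to 0.82 (edgeR, adjusted p = 0.933 for each), with 0 of 375 genes called (0%; 21, or 5.60%, at an unadjusted p under 0.05, and 7 calls by DESeq2), and 9.07% of genes lay higher in Abi3-/- without overlap against 0 of the 6. Without Abi3-/- mouse 1 all 6 turned, to between -0.14 for Cd8a and -0.69 for Ctsw.

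T cells held nearly all reads of the CD8 chains in each mouse, 99.2% to 100% of Cd8a reads and 99.5% to 100% of Cd8b1 reads. For Cxcr6 the share was 98.4%, 98.5%, 97.9% and 94.6%, for Nkg7 99.7%, 90.7%, 99.6% and 98.7%, and for Ctsw 96.3%, 88.9%, 94.8% and 93.2%. For Ccl5 it was 87.1%, 80.3%, 97.5% and 95.8%, so that Ccl5 had the lowest share of the 6 genes in both Abi3-/- mice and Ctsw in both Abi3+/+ mice. In Abi3-/- mouse 2, 4 cells of the T cell-like cluster that missed the rule held 8.15% of Nkg7 reads and 9.68% of Ccl5 reads. In Abi3-/- mouse 1, macrophage or monocyte-like cells held 9.68% of Ccl5 reads, from 3 of 29 cells, 1 of which had 14054 Ccl5 reads.

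Ccl5 was the member read most often in microglia-like cells. The brain's resident macrophages gave the largest clusters, which together held 2000, 4177, 3576 and 2949 cells. Ccl5 was read in 26, 63, 25 and 28 of them, or 1.3% (exact 95% interval 0.851% to 1.90%), 1.51% (1.16% to 1.93%), 0.699% (0.453% to 1.03%) and 0.949% (0.632% to 1.37%). Ctsw was read in 8, 17, 14 and 16 of them (0.391% to 0.543%), while each of the other 4 members was read in 3 to 5 microglia-like cells in all. Neutrophil-like cells (114), F5- and Mgst1-led cells (173) and B cell-like cells (53) had no Ccl5 read, which with their numbers allows shares of up to 2.63%, 1.73% and 5.66%. A cluster led by MHC class II genes, which also had microglial markers and was kept apart from the microglia-like cells, had Ccl5 reads in 9 of 174, 1 of 37, 2 of 61 and 0 of 10 cells.

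The cells with Ccl5 reads were taken from clusters named by microglial markers, so their markers are given as a description. All 142 had 3 or more of the microglial genes C1qa, C1qb, Cx3cr1, Trem2 and Ly86, as did 99.9% of the microglia-like cells without Ccl5. A T cell rule gene was read in 1 of the 142 and in 24 of the cells without Ccl5, and none of the 142 had a read of another member. The other members were rare in all microglia-like cells, as given above, so few or no such cells could be met among 142. The Ccl5-reading microglia-like cells had a median of 68, 59, 63 and 88.5 Ccl5 reads, against 1258 to 1643 in T cells. Their median depth was 24552, 21378, 22974 and 25737 reads, against 24210.5, 19889, 19640 and 22678 in those without Ccl5. Among the 11 microglia-like clusters the share ran from 0.538% to 1.98%, and a cluster led by Cst7 and Apoe, which was the deepest at a median of 35894 reads, had 1.91%, while another cluster led by Cst7 and Apoe, at a median of 19018 reads, had 0.646%.

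Over all microglia-like cells, the share with a Ccl5 read was higher in the Abi3-/- mice, without overlap, but this was not so within each cluster. The means were 1.4% ± 0.147 (SD, n = 2) and 0.824% ± 0.177 (SD, n = 2), a difference of 0.580 percentage points at the smallest p of the exact permutation test (2-sided, p = 0.33). Of the 321 genes tested in these cells 84 (26.2%) had a higher share of cells with a read in Abi3-/- without overlap and 54 (16.8%) a lower one. The level of Ccl5 was 82.9, 85, 31.2 and 55.6 RPM in microglia-like cells. The log2 fold change of 1.15 ± 0.38 SE did not pass the adjusted threshold (edgeR, unadjusted p = 0.0413, adjusted p = 0.525; 0.81 to 1.61 with each mouse left out in turn). Of 321 genes tested in microglia-like cells edgeR called 0 (0%), with 29 (9.03%) at an unadjusted p under 0.05 and 11 calls by DESeq2. By RPM without TMM scaling, 10.3% of genes lay higher and 33.6% lower in Abi3-/- without overlap. The genotypes filled the clusters unequally. The largest, led by Egr1 and Junb, had 357, 1543, 211 and 114 cells in the 4 mice, and there the shares with Ccl5 were 0.560%, 1.36%, 1.42% and 1.75%. Of the 11 clusters the Abi3-/- mice were higher without overlap in 3 and lower without overlap in 2, the largest among these, and 6 overlapped or were tied, with 0 to 21 cells with Ccl5 per mouse and cluster. The part of the cluster make-up in the difference over all microglia-like cells was not tested. With microglia-like cells thinned to 12250 reads and shallower ones left out, which kept 1919, 3623, 3180 and 2783 cells, the shares were 1.25%, 1.63%, 0.692% and 0.970%. Ctsw had a log2 fold change of -0.02 ± 0.58 SE between genotypes in these cells (edgeR, adjusted p = 0.989).

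**Figure D5:**
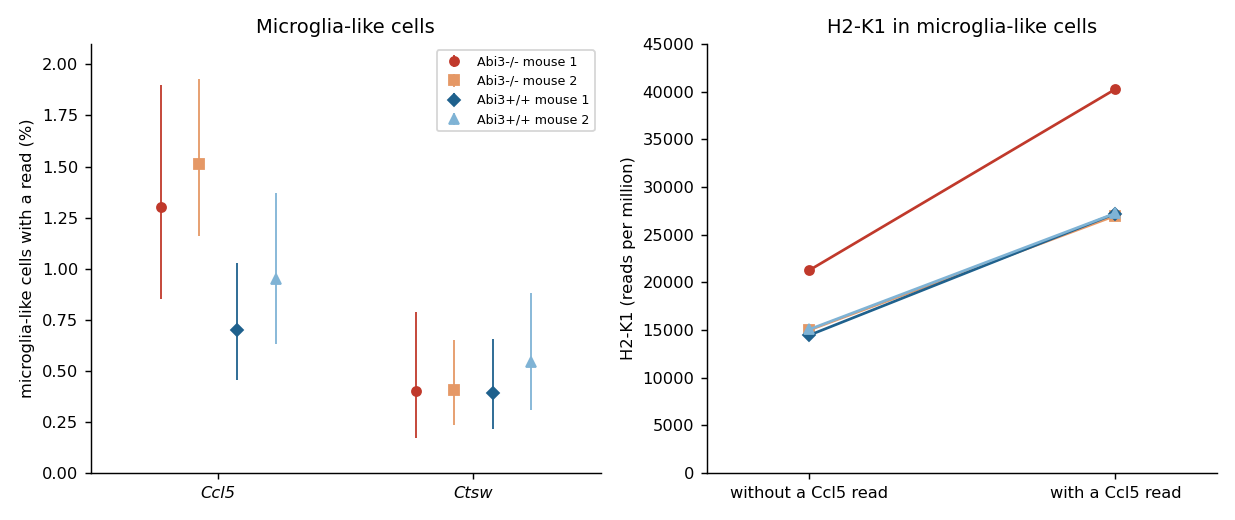
Left, percent of microglia-like cells with a Ccl5 or Ctsw read in each mouse, with exact 95% binomial intervals; right, H2-K1 in RPM in microglia-like cells without and with a Ccl5 read, with a line for each mouse. For Ccl5 the Abi3-/- mice lie at 1.3% and 1.51% and the Abi3+/+ mice at 0.699% and 0.949%, and H2-K1 is higher in the cells with Ccl5 in all 4 mice.

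Microglia-like cells with and without a Ccl5 read were then compared within the mice, a comparison added after seeing the data. H2-K1, which encodes a classical MHC class I chain, stood at 40264, 26986, 27212 and 27242 RPM in cells with Ccl5 and at 21263, 14985, 14446 and 15055 in cells without. It was higher in each mouse, by 1.89, 1.80, 1.88 and 1.81 times (edgeR with mouse as a block, log2 fold change 0.81 ± 0.06 SE, adjusted p = 9.10e-04). Ifitm3, an interferon-induced membrane protein gene, stood at 2355, 1908, 1066 and 1366 against 743, 428, 417 and 385 RPM (edgeR, log2 fold change 1.67 ± 0.22 SE, adjusted p = 0.0220). The levels of Ifitm3 in cells with Ccl5 rested on 9 of 26, 14 of 63, 2 of 25 and 6 of 28 cells with an Ifitm3 read, so 2 cells carried the value of Abi3+/+ mouse 1, where 6.59% of the cells without Ccl5 had a read. These were the 2 calls among 267 genes (0.749%), with 16 genes (5.99%) higher and 53 (19.9%) lower in all 4 mice. Of the lower genes 27 had no read in any of the 142 cells with Ccl5, so their direction can come from the few cells, 25 to 63 per mouse. In T cells H2-K1 stood at 168424, 159869, 170031 and 168545 RPM, and 1 of the 142 cells with Ccl5 had a read of a T cell rule gene. With that cell and the other cells with a T cell rule gene left out, the log2 fold change of H2-K1 was 0.82 and that of Ifitm3 1.68. With thinned cells edgeR still called H2-K1 (adjusted p = 0.00125) and no longer Ifitm3 (adjusted p = 0.0996). Ifitm3 lost its call in 5 of 11 alternatives, with an adjusted p of up to 0.408 by limma. Without Abi3-/- mouse 2, which gave 63 of the 142 cells, edgeR called 0 genes, with 20 at an unadjusted p under 0.05 and adjusted p of 0.0639 for H2-K1 and 0.188 for Ifitm3. With each mouse left out in turn the log2 fold change stayed between 0.77 and 0.85 for H2-K1 and between 1.52 and 1.79 for Ifitm3.

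The partners of Ccl5 and Cxcr6 described here were read mostly in other cells. Ccr1, a receptor of CCL5, was read in no T cell but in 83.3% to 100% of neutrophil-like cells and 38.6% to 48.3% of macrophage or monocyte-like cells. In microglia-like cells Ccr1 was read in 10.1%, 1.72%, 1.2% and 2.2%, with Abi3-/- mouse 1 far above the others. Ccr3 was read in 1 T cell and in at most 0.671% of microglia-like cells. Cxcl16, the ligand of Cxcr6, was read in 1.05% to 2.94% of T cells, in 38.1%, 35.7%, 27.5% and 32.3% of microglia-like cells and in 28.1% to 58.6% of macrophage or monocyte-like cells. Its level in microglia-like cells overlapped between genotypes, at 1071, 1076, 901 and 1133 RPM, with a log2 fold change of 0.27 ± 0.16 SE (edgeR, adjusted p = 0.765).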

How the data were processed

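The authors ran the BD Rhapsody targeted pipeline (version not given in the sources used here) and deposited, for each gene in each cell, the count of reads left by its distribution-based correction of errors, on build mm10 per the labels. Cells with at least 40 genes and at most 59300 reads were kept (13820). The study's methods word the lower limit as 40 unique reads, which was taken here as genes; taken as reads it would leave 19494 cells and 316 T cells in place of 307. In the main analysis the filter on reads was the only step against doublets. As an alternative, the 8 of 307 T cells with 10 or more reads of 3 or more of the 5 microglial genes were left out. Without the 6 genes, reads were log-normalized to 10000 per cell and clustered in Seurat 5.3.0 (R 4.3.3; 10 principal components, Louvain, resolution 0.8), and clusters were named from markers. The MHC class II-led cluster was kept apart after it had been seen. Reads were summed per mouse, which is the replicate, and tested with edgeR 4.0.16 (filterByExpr, TMM, quasi-likelihood test, Benjamini-Hochberg over all genes tested, threshold 0.05), with SE as the fold change divided by the root of F. For the CD8 classes, mouse was a block and Cd8a and Cd8b1 got no test. DESeq2 1.42.0 and limma 3.58.1 (on mean log-normalized expression) were alternatives. Single values were compared by exact permutation over mice (SciPy 1.17.1). Levels per mouse, and counts of genes by the order of their levels among mice or classes, are of RPM without TMM scaling. Intervals are exact 95% binomial ones, and limits for a share of 0 use 3 counts. The fitting code was tested on simulated data.

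The members and lists were chosen with earlier results of these data known. By rule the text names the 6 members, the T cell rule genes, other genes past the threshold between CD8 classes with the same sign in all 4 mice, the partners and effector genes listed, and the 2 most alike genes of each member, apart from genes not reported here. Runx3, Fasl, Tnfrsf4, Icos, Klrb1, Klrk1, Klrc1, Cd160, H2-K1 and Ifitm3 were named after their values were seen, as were Thy1, Lck, Klra1, Klra7, Klra21, Tigit1, Tigit2, Cxcr3, Itgae, Cd69, Tcf7 and Ccr7. Deposited totals were 87117727 to 150756771 reads per mouse. From 17 to 42 cell indices were shared between pairs of libraries.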

Additional observations from a re-analysis of the deposited data

Results flagged for a closer look

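The cell filter left out 11 cells that met the T cell rule, a signal in cells that the comparisons do not use. Of these, 9 had fewer than 40 genes and 2 had reads above the upper limit. Reads of at least 1 of the 6 genes were found in 7 of the 9 and in 2 of the 2, and a CD8 chain in 6 and 1 of them. By mouse they were 3 in Abi3-/- mouse 1, 0 in Abi3-/- mouse 2, 3 in Abi3+/+ mouse 1 and 5 in Abi3+/+ mouse 2.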

How the results depend on the processing

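Leaving out each mouse in turn gave 0 to 1 calls between genotypes in T cells, 0 to 1 in microglia-like cells, 0 to 5 between the CD8 classes and 0 to 3 between microglia-like cells with and without Ccl5. Between genotypes this leaves 1 mouse in an arm, which is assumed to vary like the other genotype. The genotype difference in T cells then ranged from 0.13 to 0.38 for Cd8a, 0.00 to 0.32 for Cd8b1, -0.49 to -0.01 for Ctsw, -0.30 to 0.05 for Nkg7, -0.09 to 0.37 for Cxcr6 and -0.46 to 0.13 for Ccl5 on the log2 scale, that of Ctsw in microglia-like cells from -0.48 to 0.33, and those over all kept cells from -0.14 to 1.4 for Cd8a, -0.27 to 1.33 for Cd8b1, -0.44 to 1.01 for Nkg7, -0.69 to 0.96 for Ctsw, -0.39 to 1.35 for Cxcr6 and -0.46 to 1.29 for Ccl5. The difference of the T cell share ranged from -0.570 to 2.01 percentage points, and that of detection in T cells from -9.48 to 6.77 for Cd8a, -11.1 to 6.66 for Cd8b1, -10.2 to 4.73 for Nkg7, -22.4 to -3.34 for Ctsw, -7.55 to 4.62 for Cxcr6 and -14.4 to 4.07 for Ccl5. With thinned cells the detection difference turned to 1.72 for Cd8a, 2.17 for Cd8b1 and 0.575 for Cxcr6, and with 1 or more T cell genes as the rule it turned to 0.586 for Cd8a. DESeq2 called 4 genes between genotypes in T cells, 11 in microglia-like cells, 7 over all kept cells, 37 between the CD8 classes and 19 between microglia-like cells with and without Ccl5. For the last 2 comparisons limma called 21 and 1, and edgeR without the mouse block 11 and 27. Between the CD8 classes there were 8 calls with both chains against neither, 8 with Cd4-reading cells alone as CD8-negative, and 39 with 1 or more T cell genes as the rule. Clustering on all panel genes turned Ctsw in microglia-like cells to 0.03. The causes were not tested. Without TMM scaling Cxcr6 turned to -0.17 between the CD8 classes, together with the median of all genes, as the scaling shifts all genes of a library alike. Nkg7 lost its call between the CD8 classes without TMM scaling (adjusted p = 0.0510 by edgeR) and without Abi3-/- mouse 1 (0.0545) or Abi3+/+ mouse 1 (0.0629). The sign of the Ccl5 detection difference over all microglia-like cells held under all 11 alternatives run.

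The labels give the replicate numbers no meaning beyond naming the mice. The deviations of same-numbered mice had r = -0.0269 in T cells, 0.328 in microglia-like cells and 0.0585 over all kept cells, and 2 pairs do not settle whether the numbers pair the mice. With the replicate number as a block edgeR called 0 genes in T cells, in microglia-like cells and over all kept cells, with 5, 36 and 27 at an unadjusted p under 0.05. The paired difference in the T cell share was 0.721 percentage points, from 2.30 and -0.861 within the numbers.

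With 68 to 95 T cells and 13 to 28 CD8-negative cells per mouse, rare transcripts rest on few cells, and reads are not independent molecules.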

Other observations

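T cells of all 4 mice also held genes of tissue residence and of memory. Cxcr3, a chemokine receptor of effector T cells, was read in 92.6%, 79.4%, 92.6% and 84.2% of T cells of Abi3-/- mice 1 and 2 and Abi3+/+ mice 1 and 2. Itgae, the integrin chain CD103 of resident T cells, was read in 37.9%, 26.5%, 29.4% and 11.8%, and Cd69 in 29.5%, 13.2%, 20.6% and 18.4%. Between the CD8 classes Itgae was higher in CD8-positive cells of each mouse without passing the threshold (edgeR, log2 fold change 3.83 ± 1.51 SE, adjusted p = 0.288). Tcf7, the factor TCF1 of memory and naive T cells, was read in 57, 53, 41 and 58 T cells, while the lymph node homing gene Ccr7 was read in 6.32% to 14.7%. Of 5 genes of residence and inhibition and 5 genes of naive and central memory T cells, 0 passed the adjusted threshold of edgeR between the CD8 classes. In the 2 lists 1 and 0 genes had an unadjusted p under 0.05. Over all 252 genes the shares were 1.98% and 15.9%, and with 5 genes per list these counts lie near them.

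Natural killer receptors that CD8 T cells can share were read in part of the T cells. Klrk1 (NKG2D) was read in 35, 9, 15 and 17 T cells, Klrc1 (NKG2A) in 38, 10, 30 and 19 and Cd160 in 34, 16, 19 and 16. Abi3-/- mouse 2 was lowest by share for Klrk1 and Klrc1. These 3 were named after their values were seen, and the other 12 of the 15 listed receptors were read in 0% to 9.47% of the T cells of a mouse.

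One T cell of Abi3-/- mouse 1 held 16460 Ccl5 reads, against at most 4559 to 5787 in a T cell of the other mice. Of 48 kept cells with a read of exactly 1 T cell rule gene, 10 had a read of a member and 25 were microglia-like. The 15 cells that clustered with the T cells but missed the rule had Nkg7 in 6, Ctsw in 7, and neither CD8 chain in any. Above the read limit 1.91% of cells had a Ccl5 read and 74 of 1678 cells had a Ctsw read.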
